A study of Mus musculus with 12 samples.

Results

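Imiquimod (IMQ) cream was compared with no treatment in whole skin of mice heterozygous for the aryl hydrocarbon receptor (AhR), a ligand-activated transcription factor that senses small molecules in barrier tissues. The comparison used 6 of the 12 arrays of the series, the 3 titled AhR HET 2d Imiquimod and the 3 titled AhR HET untreated. It covered all 18193 genes that had a probe set annotated to them alone. Where a gene had several such sets, the one with the highest mean over the 12 arrays stood for it. The genotype of all 6 arrays was AhR+/-, so treated and untreated animals alike carried 1 inactive allele of *Ahr*, and no array came from wild-type mice. Treated skin was taken on day 2 after the first application and untreated skin on day 0. The methods describe shaved back skin creamed daily, and no source used here says that the untreated skin was shaved or given a cream without IMQ, so the drug, the cream and its application cannot be told apart. Age, sex and the number of animals behind each array are not given in the labels. These describe each group's arrays as biological replicates, and the p-values measure the spread between them. The other 6 arrays, from *Ahr*-/- skin treated and untreated in the same way, entered the shared estimate of the spread and a test of whether the 2 genotypes responded differently.

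IMQ is an agonist of Toll-like receptor 7, and cream containing it is widely used on mouse skin to provoke an inflammation with scaling, thickened epidermis and neutrophil influx that resembles psoriasis. In psoriatic skin, cytokines of the IL-1 and IL-17 families act on keratinocytes, which then proliferate, replace their usual differentiation program with stress keratins and alternative envelope proteins, and secrete antimicrobial peptides and chemokines that draw leukocytes. The outermost skin barrier is built from cornified envelopes, crosslinked proteins laid down inside dying keratinocytes, and from lipids released between them.

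Signals are given as log2 values made with robust multi-array averaging (RMA), in which an increase of 1 doubles the estimated intensity. A gene was called higher or lower when limma's adjusted p was under 0.05 and its fold change was at least 1.5. Differences are the mean of the IMQ arrays minus the mean of the untreated arrays, with the standard error (SE) from limma and 3 arrays in each group. Signals of different probe sets are not on one scale, so only differences are compared between genes. The 6 arrays held the defining markers of skin. *Krt14*, the keratin of basal keratinocytes, lay at 13.09 or above, *Col1a2* of fibroblasts at 13.68 or above, *Adipoq* of fat cells at 11.83 or above and *Acta1* of skeletal muscle at 14.27 or above, so the samples reached through the dermis into fat and muscle. *Hba-a1* of red blood cells (at most 4.46) and *Cd79a* of B cells (at most 5.02) were near the bottom of the range, *Alas2* and *Hbb-b2* of red cells lay at 5.18 to 6.26 and 5.65 to 6.83, and *Ighm* of B and plasma cells at 9.53 to 11.21. In such whole tissue, fewer cells of a type and less RNA per cell cannot be told apart. The *Ahr* probe set read 9.79 to 11.30 on the 6 heterozygous arrays and 9.07 to 11.44 on the 6 *Ahr*-/- arrays, so it did not separate the genotypes and checks none of the labels.

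Within the comparison, 2 arrays stood apart. Untreated replicate 2 correlated with the other untreated arrays at r = 0.9622 and 0.9678 over all genes, against 0.9841 between those 2. It carried the RNA of growing hair follicles: the mean signal of 38 hair growth genes was 11.17 on it and 7.87 and 7.70 on the other untreated arrays, and the mean of 47 cell cycle genes was 9.39 against 7.85 and 7.87. IMQ replicate 1 had the highest IMQ signal in 526 of the genes called higher and the lowest in 485 of those called lower, and its neutrophil chemokine genes averaged 8.37 against 7.13 and 6.17. Both arrays were kept, and results that rest on them are given without them. The plot of list means by array shows both departures.

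**Figure D1:**
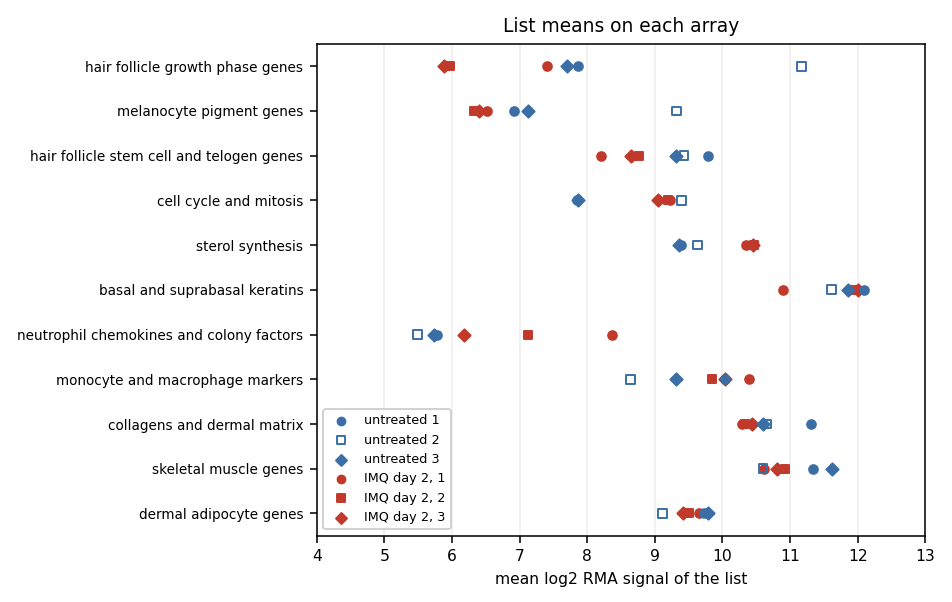
Mean log2 RMA signal of the measured genes of 11 lists (rows) on each of the 6 Ahr+/- arrays, untreated in blue and IMQ day 2 in red, with marker shape for the replicate. Untreated replicate 2 (open square) stands at 11.17 for hair growth genes against 7.70 to 7.87 on the other untreated arrays, and IMQ replicate 1 (red circle) stands at 8.37 for neutrophil chemokines.

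After 2 days, 949 genes (5.22% of those tested) were called higher and 697 (3.83%) lower. The counts of called genes in the lists below are to be read against these shares. The rises were larger than the falls. At 4-fold or more there were 149 rises and 58 falls, at 16-fold or more 37 and 8, and at 64-fold or more 15 rises and no fall. The median difference was 1.07 over the genes called higher, -0.95 over those called lower and -0.007 over all genes. The 2 groups of 3 arrays did not overlap in 5420 genes (29.8%), so an absence of overlap alone is common here and each gene below is given with its test. Without untreated replicate 2, 1290 genes were called higher and 1146 lower, and 831 of the 949 and 611 of the 697 were among them. Without IMQ replicate 1, 584 and 317 were called, with 556 and 304 shared. Of the 259 called genes that the naming rule selected, 144 kept their call with each of the 6 arrays left out in turn. Calls named below are of that kind unless the text says otherwise, which covers the leaving out of arrays only. Of the 259, a fit to the 2 groups compared alone lost 113. Rank product, a rewrite of the study's own test, lost 160. Of 102 called named genes with further probe sets, 36 had no other set called in the same direction, among them *Col1a1*, *Egln3*, *Far2* and *H2-Ab1*. None had a set called in the opposite direction. Genes outside the rule are named to complete a counted list or for comparison, and were picked with their values in view.

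The leading rises included keratins, envelope proteins and antimicrobial proteins. *Krt6b*, a keratin that hair follicles and wounded epidermis make, read 5.20, 5.75 and 4.62 without treatment and 14.91, 14.72 and 14.58 after IMQ, a difference of 9.55 (SE 0.32, adjusted p = 6.56e-09). Its untreated signals were near the floor of the arrays and its IMQ signals near their ceiling, the highest signal on any array being 14.92, so both ends of the scale limit the size. *Krt16*, the type I partner of the KRT6 proteins, went from 8.89, 6.73 and 7.11 to 14.39, 14.22 and 14.06, a difference of 6.64 (SE 0.41, adjusted p = 1.51e-06). *Krt6a* rose by 2.96 (SE 0.26, adjusted p = 2.31e-05) from untreated signals that were already at 10.63 to 11.65. In all 3 keratins the groups lay far apart. *Krt14* of the basal layer rose by 1.49 (SE 0.13, adjusted p = 2.17e-05), from 13.39, 13.26 and 13.09 to 14.84, 14.75 and 14.64.

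Other keratins were called in both directions. Among 8 hyperproliferation and wound keratins, 3 were called higher (*Krt6b*, *Krt16* and *Krt6a*) and 2 lower (*Krt7* and *Krt19*, simple-epithelial keratins found in appendages). Among 10 basal and suprabasal keratins, 2 were called higher and 4 lower. *Krt77*, a keratin of sweat gland ducts and suprabasal mouse epidermis, read 14.39, 13.86 and 14.30 untreated and 10.01, 12.67 and 12.80 after IMQ. It fell by 2.36 (SE 0.56, adjusted p = 0.0193), every IMQ array was lower and IMQ replicate 1 was the lowest by far. The call was lost without untreated replicate 3 (adjusted p = 0.0615). *Krt10*, the main suprabasal keratin, read 14.44, 14.13 and 14.42 untreated and 12.32, 14.33 and 14.46 after IMQ, so it was low on IMQ replicate 1 alone and was not called (difference -0.63, SE 0.45, adjusted p = 0.433). Loricrin showed the same split, with *Lor* at 10.71 on IMQ replicate 1 against 13.19 to 14.16 on the other 5 arrays, and was not called (adjusted p = 0.207). *Krt7* was lost as a call without IMQ replicate 1 (adjusted p = 0.0528) or 2 (0.0505), *Krt19* without any single IMQ array (0.0924 to 0.0963), and the other calls among these 10 keratins, *Krt5*, *Krt15*, *Krt80* and *Krt2*, were each lost without 5 of the 6 arrays in turn.

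Envelope protein genes gave some of the largest rises and 1 of the largest falls. The small proline-rich (SPRR) proteins and late cornified envelope (LCE) proteins are crosslinked into the cornified envelope. Of 33 measured genes of this list 14 were called higher and 2 lower (median 0.64, 12 to 18 higher with 1 array left out). The falls were *Lce1m* and *Tchh*, a protein of the hair root sheath (lost without 4 of the 6 arrays in turn, adjusted p = 0.0634 to 0.159). *Sprr1b* was at the floor without treatment, at 3.76, 3.23 and 3.65, and at 13.05, 12.48 and 12.43 after IMQ, a difference of 9.11 (SE 0.19, adjusted p = 3.42e-11), the smallest p of the comparison. The untreated arrays did not reach 4 and the IMQ arrays did not fall under 12. *Sprr2d* rose by 7.44 (SE 0.35, adjusted p = 1.44e-07), *Sprr2h* by 6.98 (SE 0.46, adjusted p = 2.35e-06), *Sprr2f* by 6.41 (SE 0.51, adjusted p = 1.29e-05) and *Sprr2i* by 6.15 (SE 0.68, adjusted p = 0.000179). The SPRR2 genes are close copies of each other, and their probes may share RNA, so how much each copy rose is uncertain. *Sprr1a* was not called, with untreated signals from 10.06 to 13.23 that enclosed the IMQ signals of 12.41 to 12.93, and *Sprr3*, an envelope protein of internal epithelia, did not differ beyond the spread (difference 0.09).

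LCE genes of group 3, which are known to be induced by wounding and in psoriasis, were called higher in all 4 measured members. *Lce3a* read 4.73, 4.62 and 5.51 untreated and 10.61, 10.03 and 10.38 after IMQ, a difference of 5.39 (SE 0.48, adjusted p = 2.76e-05). *Lce3f* rose by 5.38, *Lce3c* by 3.81 and *Lce3b* by 2.99. Group 1 LCE genes, made in undisturbed epidermis, gave 1 called rise and 1 called fall among 11 measured. The rise was *Lce1g* (difference 1.49), lost without untreated replicate 1 or IMQ replicate 2 or 3 (adjusted p = 0.0501 to 0.0883). The fall was *Lce1m*, at 12.34, 11.71 and 12.59 untreated and 6.84, 8.59 and 8.78 after IMQ. It fell by 4.14 (SE 0.41, adjusted p = 7.38e-05), with a gap of almost 3 log2 units between the closest arrays of the groups. *Rptn*, a fused S100 protein of the envelope, rose by 2.69 (adjusted p = 0.0134), lost without untreated replicate 3 or IMQ replicate 2 or 3 (0.0505 to 0.0579), and *Cnfn*, a cornified cell protein, by 1.97 (adjusted p = 0.00598).

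The promoters of 3 of these genes are shown because all of them hold the letters of the AP-1 motif, TGANTCA, which is bound by FOS and JUN proteins. The sequences are the 250 bases before the RefSeq start in GRCm38.p6, 5′ to 3′ on the strand of the gene, with motif letters in capitals. The *Sprr1b* window is chr3:92438780-92439029 on the minus strand, the *Sprr2d* window chr3:92338890-92339139 and the *Sprr2h* window chr3:92385435-92385684, both on the plus strand.
Sprr1b: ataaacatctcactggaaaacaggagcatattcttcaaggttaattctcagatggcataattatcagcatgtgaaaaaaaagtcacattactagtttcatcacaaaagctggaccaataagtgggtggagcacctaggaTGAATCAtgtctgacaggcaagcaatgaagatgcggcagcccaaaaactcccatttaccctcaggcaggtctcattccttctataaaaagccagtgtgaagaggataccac
Sprr2d: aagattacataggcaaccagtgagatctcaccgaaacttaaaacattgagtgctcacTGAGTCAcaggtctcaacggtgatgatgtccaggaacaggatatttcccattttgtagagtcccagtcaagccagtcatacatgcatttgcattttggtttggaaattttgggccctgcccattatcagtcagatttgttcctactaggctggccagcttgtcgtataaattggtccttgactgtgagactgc
Sprr2h: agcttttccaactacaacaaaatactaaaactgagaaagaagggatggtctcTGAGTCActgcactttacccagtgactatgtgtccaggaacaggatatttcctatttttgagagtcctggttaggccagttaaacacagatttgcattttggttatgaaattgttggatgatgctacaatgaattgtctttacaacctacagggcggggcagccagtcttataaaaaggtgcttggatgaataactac
The match began 111 bases before the start in *Sprr1b*, 193 in *Sprr2d* and 198 in *Sprr2h*. Among the 30 genes of the list with a promoter window, 12 held the motif on either strand, 7 of them among the 13 called higher with a window. Of all 32851 windows of this length 6.75% held it, of the 18109 windows of measured genes 5.62% and of the 886 windows of genes called higher 8.92%, against 5.52% of the 706 windows of genes called lower. Windows were given for 14452 of the 18193 genes, and a match is a run of letters only. The list counts are of genes, any of whose windows could match, while the shares are of windows, so they are not on one scale.

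Alarmins and antimicrobial peptides gave some of the largest rises. Of 24 measured, 11 were called higher and 1 lower (median 0.48, 8 to 12 higher with 1 array left out), the fall being *S100a3* of hair, lost without IMQ replicate 2 or 3 (adjusted p = 0.0998 and 0.101). *S100a9* and *S100a8*, whose products form calprotectin and which both keratinocytes and neutrophils make, rose by 8.23 (SE 0.31, adjusted p = 1.36e-08) and 7.12 (SE 0.39, adjusted p = 6.28e-07). *S100a9* read 6.72, 5.58 and 5.50 untreated and 14.68, 13.84 and 13.97 after IMQ. *S100a8* read 6.63, 7.96 and 7.18 and then 14.69, 14.15 and 14.30. The IMQ signals of both were close to each other and far above every untreated array. *Saa3*, an acute-phase apolipoprotein, went from 4.74, 5.63 and 5.12 to 13.82, 11.93 and 11.84, a difference of 7.36 (SE 0.44, adjusted p = 1.45e-06). *Lcn2*, which binds bacterial siderophores, went from 5.88, 5.06 and 5.60 to 13.16, 11.12 and 11.04, a difference of 6.26 (SE 0.44, adjusted p = 4.13e-06). IMQ replicate 1 was highest in both, by more than the untreated arrays differed from each other, and the lowest IMQ array still lay far above every untreated one. The beta-defensin *Defb3* rose by 5.09 (adjusted p = 0.000904) and the protease inhibitor *Slpi* by 4.37 (adjusted p = 5.17e-06).

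The letters of the C/EBP motif, TTGCNNAA, stood in the windows of 10 of the 20 genes of this list that have one, 7 of them among the 9 called higher with a window. Counted by window and not by gene, the share was 9.56% over all windows, 8.34% among measured genes, 11.1% among genes called higher and 8.64% among genes called lower. The *Saa3* window, chr7:46715677-46715926 on the minus strand, is shown because *Saa3* is among those 7 and the letters, in capitals, begin 99 bases before the start.
Saa3: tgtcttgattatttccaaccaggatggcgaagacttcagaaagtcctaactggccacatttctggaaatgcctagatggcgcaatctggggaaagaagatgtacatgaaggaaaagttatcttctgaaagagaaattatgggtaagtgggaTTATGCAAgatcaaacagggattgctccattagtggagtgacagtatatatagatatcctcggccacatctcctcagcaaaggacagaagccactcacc

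Proteases and their inhibitors, which control the shedding of cornified cells, had called rises and no called fall. Among 10 kallikreins 6 were called higher and none lower (median 1.19, 5 to 8 with 1 array left out). *Klk6* read 8.79, 8.59 and 6.09 untreated and 12.72, 12.38 and 12.03 after IMQ, a difference of 4.56 (SE 0.53, adjusted p = 0.000289). *Klk13* rose by 4.24, *Klk9* by 2.17, *Klk8* by 1.55 and *Klk7*, the chymotryptic enzyme that cuts corneodesmosomes, by 1.06. *Klk11* rose by 1.32 and its call was lost without untreated replicate 3 or IMQ replicates 2 or 3 (adjusted p = 0.0742 to 0.0932). Over the chromosomal run of 20 measured genes from Klk14 to *Klk1* on chromosome 7, these 6 were the ones called. Of 16 stefins and clade B serpins 9 were called higher and none lower (median 0.78, 7 to 10 with 1 array left out). The stefins, inhibitors of cysteine proteases that neutrophils and keratinocytes make, led. *Stfa2l1* went from 4.2, 5.69 and 4.64 to 12.80, 11.48 and 11.20 (difference 6.98, adjusted p = 1.06e-06), and *Stfa3* from 6.76, 8.69 and 5.53 to 13.76, 13.68 and 13.96 (difference 6.81, adjusted p = 1.37e-05). *Serpinb3a* rose by 4.91 and *Serpinb6c* by 4.87, and *Serpinb12* by 4.07 with its 3 IMQ signals spread from 7.79 to 10.01.

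Enzymes that make and crosslink the barrier gave smaller called rises. Of 21 transglutaminase and barrier lipid genes 11 were called higher and none lower (median 0.90, 6 to 10 with 1 array left out, the fewest without IMQ replicate 2). *Tgm3*, which crosslinks envelope proteins, went from 6.24, 7.32 and 6.13 to 10.10, 9.26 and 8.82, a difference of 2.83 (SE 0.39, adjusted p = 0.000884). *Cers3*, the ceramide synthase of very long acyl chains, went from 8.78, 8.93 and 8.47 to 10.92, 10.60 and 10.65, a difference of 2.00 (SE 0.20, adjusted p = 7.14e-05). *Elovl4*, which lengthens those acyl chains, rose by 1.5 (adjusted p = 0.00708), and *Sdr9c7*, which oxidises the linoleate of barrier ceramides, by 1.47 (adjusted p = 0.00768). *Tgm1* rose by 1.42, a call lost without untreated replicate 3 or IMQ replicates 1 or 2 (adjusted p = 0.0584 to 0.0737). In sebaceous and fatty acid genes 5 of 21 were called higher, among them *Elovl3*, from 8.98, 9.45 and 7.96 to 12.71, 12.58 and 12.57 (difference 3.83, adjusted p = 1.69e-05), *Far2* (2.21), the lipid droplet coats *Plin5* (1.51) and *Plin2* (1.43), and *Cidea* (1.42, lost without IMQ replicate 2 or 3, adjusted p = 0.0658 and 0.0563). *Scd1* and *Fasn* did not pass the test (differences -0.11 and -0.21).

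Sterol synthesis had the highest share of called members of the 57 lists. Of 21 measured genes 17 (81.0%) were called higher and none lower (median 0.97). With 1 array left out 12 to 16 were called, the fewest without IMQ replicate 2 or 3. The called rises spanned the pathway that turns acetyl units into mevalonate, isoprenoids, squalene and cholesterol. *Cyp51*, which removes a methyl group from lanosterol, went from 9.17, 9.59 and 9.07 to 11.16, 11.15 and 11.19, a difference of 1.89 (SE 0.19, adjusted p = 9.56e-05). *Idi1*, which isomerises isopentenyl diphosphate, rose by 1.87 (SE 0.28, adjusted p = 0.00142), *Lss*, which closes the sterol rings, by 1.64 (SE 0.20, adjusted p = 0.000421), *Hsd17b7* by 1.53, *Sqle*, the squalene epoxidase, by 1.33 and *Msmo1* by 1.33. The IMQ arrays of *Cyp51* differed by less than 0.1 from each other, and in none of these 6 genes did the groups overlap. The 4 members not called were *Dhcr7* (difference 0.28), which makes cholesterol in the last step, the regulator *Insig1* (0.21) and the transcription factors *Srebf2* (0.44) and *Srebf1* (-0.24). Rank product, rewritten here from the study's own test, called none of the 17. It called 142 genes higher and 82 lower over all genes.

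**Figure D2:**
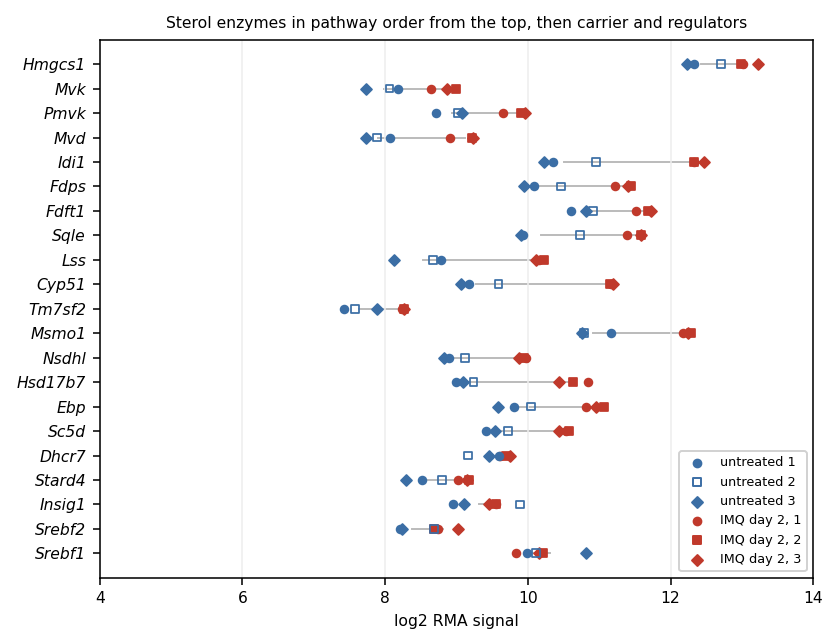
Log2 RMA signal of the 21 measured sterol genes on each Ahr+/- array, enzymes in pathway order from the top and then the carrier Stard4 and the regulators Insig1, Srebf2 and Srebf1, with untreated arrays in blue and IMQ day 2 arrays in red. From Hmgcs1 to Stard4 every red marker lies to the right of every blue one, and the 3 regulators overlap. Among the enzymes Dhcr7 was not called.

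The promoter of *Hmgcs1*, which makes the precursor of mevalonate and rose by 0.65 (SE 0.16, adjusted p = 0.0236; lost without any array but untreated replicate 2, 0.0546 to 0.0955), is shown because it alone of the 17 sterol genes with a window holds the SREBP letters TCACNCCAC, 137 bases before the start. They stood in 1.05% of all windows and of those of measured genes, 1.02% of those of genes called higher and 0.85% of those of genes called lower. Its window is chr13:119690101-119690350 on the plus strand of GRCm38.p6.
Hmgcs1: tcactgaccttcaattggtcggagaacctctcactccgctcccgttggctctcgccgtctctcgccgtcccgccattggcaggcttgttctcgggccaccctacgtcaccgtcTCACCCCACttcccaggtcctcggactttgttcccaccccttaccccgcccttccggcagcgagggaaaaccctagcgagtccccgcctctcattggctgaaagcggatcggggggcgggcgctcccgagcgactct

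The IL-1 family list holds cytokines, receptors and inflammasome genes. Of its 18 measured genes 9 were called higher and none lower (median 0.93), and 9 or 10 higher with any 1 array left out. *Il1f10*, a cytokine of the family that is not on the list, was called lower. The epidermal IL-36 cytokines led. *Il1f6* (IL-36 alpha) read 5.49, 6.12 and 4.36 untreated and 10.51, 11.96 and 11.97 after IMQ, a difference of 6.16 (SE 0.50, adjusted p = 1.39e-05). *Il1f9* (IL-36 gamma) went from 7.45, 6.68 and 7.29 to 10.17, 10.43 and 10.16, a difference of 3.11 (SE 0.30, adjusted p = 5.45e-05), and *Il1f8* (IL-36 beta) rose by 2.94 (SE 0.44, adjusted p = 0.00133). The natural antagonists rose with the agonists: *Il1f5*, which blocks the IL-36 receptor, by 2.14 (adjusted p = 0.000625) and *Il1rn*, which blocks the IL-1 receptor, by 2.12 (adjusted p = 3.54e-05). *Il33*, an alarmin kept in epithelial nuclei, rose by 2.27 and *Il1a* by 1.88. *Il1b* went from 6.18, 6.54 and 6.33 to 9.95, 8.08 and 7.74, a difference of 2.24 (SE 0.45, adjusted p = 0.00835). Its IMQ arrays all lay above the untreated ones, with replicate 1 the highest. In the run of 5 measured genes from *Il1f9* to *Il1rn* on chromosome 2, 4 were called higher and *Il1f10*, named after its value was seen, lower (fell by 0.82, SE 0.19, adjusted p = 0.016, lost without untreated replicate 3 or IMQ replicate 1 or 2, 0.0531 to 0.0657). The receptors *Il1r1* (0.01), *Il1rl2* (0.64) and *Il1rap* (0.31) were not called.

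Cytokines at the head of the IL-23 and IL-17 axis were low on every array and not called. *Il17a* read 5.03, 4.93 and 4.98 untreated and 5.56, 5.25 and 5.23 after IMQ, a difference of 0.36 that did not pass the test (SE 0.17, adjusted p = 0.196), although the groups did not overlap. *Il23a* read 4.74, 5.11 and 4.41 and then 5.64, 5.69 and 5.23 (difference 0.77, SE 0.29, adjusted p = 0.114). Of 19 genes of the axis 4 were called higher. *Ccl20*, the ligand of CCR6 on IL-17 producing lymphocytes, went from 7.51, 6.76 and 5.94 to 9.34, 11.04 and 10.35, a difference of 3.51 (SE 0.48, adjusted p = 0.000809). *Nfkbiz*, an IκB protein that keratinocytes need for their IL-17 response, rose by 2.28 (SE 0.34, adjusted p = 0.00141) and *Zc3h12a*, an RNase that limits it, by 2.22 (SE 0.29, adjusted p = 0.000551). *Il24* rose by 1.82, a call lost without 4 of the 6 arrays in turn (adjusted p = 0.0742 to 0.103). *Il6* went from 3.95, 3.46 and 3.57 to 7.85, 8.28 and 6.26 (difference 3.80, SE 0.39, adjusted p = 0.000104) and *Clcf1*, a cytokine of the same receptor family, rose by 2.84. *Il22*, *Il17c* and *Il17f* were not analysed here.

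Neutrophil chemokines differed most between the treated arrays. *Cxcl2* read 4.32, 3.92 and 3.86 untreated and 10.67, 7.82 and 5.99 after IMQ, a difference of 4.13 (SE 0.79, adjusted p = 0.00644). *Cxcl3* stayed between 2.81 and 2.88 untreated and read 10.18, 6.06 and 3.73 after IMQ (difference 3.81, SE 1.08, adjusted p = 0.0428), a call lost without 4 of the 6 arrays in turn (0.0516 to 0.106). In both, IMQ replicate 1 was highest, replicate 2 lay between and replicate 3 was lowest, and all 3 lay above the untreated arrays. The same order held for *Cxcl1*, at 9.91, 9.32 and 8.16 against 6.37 to 6.81 (difference 2.50, SE 0.37, adjusted p = 0.00131). *Cxcl5* (8.77, 5.40 and 2.97) and the colony factor *Csf3* (8.38, 6.73 and 5.63) followed it too, overlapped the untreated arrays and were not called (adjusted p = 0.105 and 0.138). Of 11 chemokine and colony factor genes 5 were called higher (median 1.29, 3 to 7 with 1 array left out). *Csf2* was not called either (difference 0.52, adjusted p = 0.0902).

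Neutrophil markers also included called rises. Of 19 measured, 6 were called higher and none lower (median 0.58, 5 to 7 with 1 array left out). *Fpr2*, a formyl peptide receptor, went from 6.87, 5.20 and 5.59 to 10.04, 9.41 and 9.09 (difference 3.63, SE 0.40, adjusted p = 0.000151). *Clec4d*, a lectin of myeloid cells, rose by 2.75 from 4.82 to 4.96 untreated, with 9.14, 7.30 and 6.53 after IMQ. *Hdc*, the histidine decarboxylase of neutrophils and mast cells, rose by 2.24, with 9.11, 7.60 and 7.18. *Itgam*, the CD11b chain of myeloid integrins, rose by 2.61. Replicate 1 was the highest IMQ array in all 4. *Mmp8*, also on the list, read 4.10, 4.22 and 4.72 untreated and 8.56, 5.45 and 5.09 after IMQ. It was not called (difference 2.02, adjusted p = 0.0688). *Csf3r*, counted above with the colony factor genes, rose by 1.17 (adjusted p = 0.0237). Its call was lost without untreated replicate 3 or IMQ replicate 1 or 2 (0.0505 to 0.0843). The granule proteins of immature neutrophils were at the floor on all arrays, *Elane* at 4.79 to 5.36 and *Mpo* at 4.21 to 4.82. The *S100a8* and *S100a9* signals cannot be divided between neutrophils and keratinocytes here, since both cell types make them.

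Some macrophage markers were called. Of 23 monocyte and macrophage markers 4 (17.4%, against 5.22% of all genes) were called higher and 1 (4.35%, against 3.83%) lower (median 0.75). Without untreated replicate 1, in which these genes averaged 10.04 against 8.64 and 9.32 on the other untreated arrays, 12 were called higher, and without untreated replicate 2, 4 were called lower. *Fcgr4*, an activating IgG receptor, went from 7.56, 5.76 and 5.94 to 10.45, 9.97 and 9.99 (difference 3.72, SE 0.44, adjusted p = 0.000292). *Marco*, a scavenger receptor, went from 5.65, 5.53 and 5.57 to 8.62, 8.46 and 8.87 (difference 3.07, SE 0.42, adjusted p = 0.000809). *Adgre1*, the F4/80 antigen, rose by 2.24 and *Ms4a7* by 2.10. The 1 called fall was *Arg1*, an arginase of some macrophages, which read 9.70, 9.0 and 10.03 untreated and 7.24, 7.71 and 7.46 after IMQ. It fell by 2.11 (SE 0.35, adjusted p = 0.0028). *Mrc1*, a mannose receptor of tissue macrophages, was not called (difference -0.19, adjusted p = 0.842), nor were *Csf1r* (-0.40, adjusted p = 0.353) and *Cd68* (1.34, adjusted p = 0.081). *Mgl2*, a lectin of dermal dendritic cells and macrophages, read 12.28, 10.01 and 10.95 and then 6.76, 7.60 and 7.52, and fell by 3.79 (SE 0.43, adjusted p = 0.000207). *Retnla* and *Cd209e*, named after their values were seen, fell by 2.30 (adjusted p = 0.00131) and 2.41 (adjusted p = 0.00342).

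Of 19 Langerhans and dendritic cell markers 5 (26.3%) were called lower and 1 (5.26%) higher, against 3.83% and 5.22% of all genes. The list median was -0.45, and 3 to 7 were called lower with 1 array left out. Class II antigen presentation genes were among the falls. *H2-Eb1* fell by 1.53 (SE 0.30, adjusted p = 0.0073), from 13.04, 11.54 and 12.31 to 10.47, 10.74 and 11.10, and *H2-Aa* by 1.29 (SE 0.25, adjusted p = 0.0077), in both without overlap. *H2-Ab1* fell by 1.33 and was lost as a call without untreated replicate 3 or IMQ replicate 1 or 2 (adjusted p = 0.0524 to 0.0853). *Cd207*, the langerin of Langerhans cells, was not called (difference -0.45, adjusted p = 0.409). Of 20 T and NK cell genes 3 were called higher and 2 lower. *Gzma*, a granzyme of cytotoxic lymphocytes, went from 5.92, 5.93 and 5.81 to 8.89, 8.82 and 8.53 (difference 2.86, SE 0.24, adjusted p = 1.93e-05), and *Gzmb* from 5.23, 4.69 and 4.98 to 7.13, 7.42 and 7.30 (difference 2.32, SE 0.25, adjusted p = 0.00015). The IMQ arrays were tight and the untreated ones lay well under them. The other called rise was *Cd5*, from 5.46, 5.01 and 5.03 to 6.05, 6.20 and 6.49 (difference 1.08, SE 0.16, adjusted p = 0.00154). Of the T cell receptor complex, *Cd3e* did not pass the test (difference -0.25, adjusted p = 0.289). *Cd3g* read 8.61, 6.84 and 8.50 untreated and 5.62, 6.91 and 6.88 after IMQ and was called lower (fell by 1.51, SE 0.44, adjusted p = 0.0464), with overlap between the groups and a call lost without 5 of the 6 arrays in turn (0.062 to 0.188). *Thy1*, an antigen of T cells and also of fibroblasts, fell by 1.64 (adjusted p = 0.00519). Of 14 mast cell and basophil genes 3 (21.4%) were called higher. The mast cell proteases *Cpa3* (0.13), *Cma1* (0.45) and *Mcpt4* (-0.10) were not among them.

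None of 37 type I interferon-stimulated genes was called in either direction (median 0.27), of which 27 lay above 0. With each array centred on its median 1 was called higher, with limma's array weights 2, and without untreated replicate 1, 11. *Irf7*, the interferon regulatory factor with the largest difference of the list, read 8.29, 6.43 and 6.89 untreated and 8.68, 8.57 and 8.45 after IMQ (difference 1.36, SE 0.42, adjusted p = 0.0579). *Mx1*, which blocks influenza virus, read 8.02, 5.27 and 6.29 and then 6.50, 6.62 and 7.06. Untreated replicate 1 was the highest and replicate 2 the lowest of all 6 arrays in *Mx1*, and the IMQ arrays lay between. *Ifit1* (difference 0.03), *Rsad2* (0.35), *Usp18* (-0.10) and the interferon-induced chemokines *Cxcl10* (0.13) and *Cxcl9* (0.10) did not pass the test. The letters of the interferon-stimulated response element, GAAANNGAA, stood in the windows of 13 of the 25 genes of this list that have one. Counted by window and not by gene, they stood in 7.13% of all windows and 6.32% of those of measured genes. The shares were 6.88% for windows of genes called higher and 5.38% for those of genes called lower. Of 21 Toll-like receptor pathway genes 5 were called higher (median 0.52), 9 without untreated replicate 1 and 2 without any other single array of the 6. *Tlr13* (2.30, adjusted p = 0.00189) and the co-receptor *Ly96* (1.52, adjusted p = 0.00207) kept their calls, *Tlr1*, *Irak3* and *Myd88* lost theirs without 5 of the 6 arrays in turn, and *Tlr7*, the receptor of IMQ, was not called (difference 0.52, SE 0.24, adjusted p = 0.208).

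**Figure D3:**
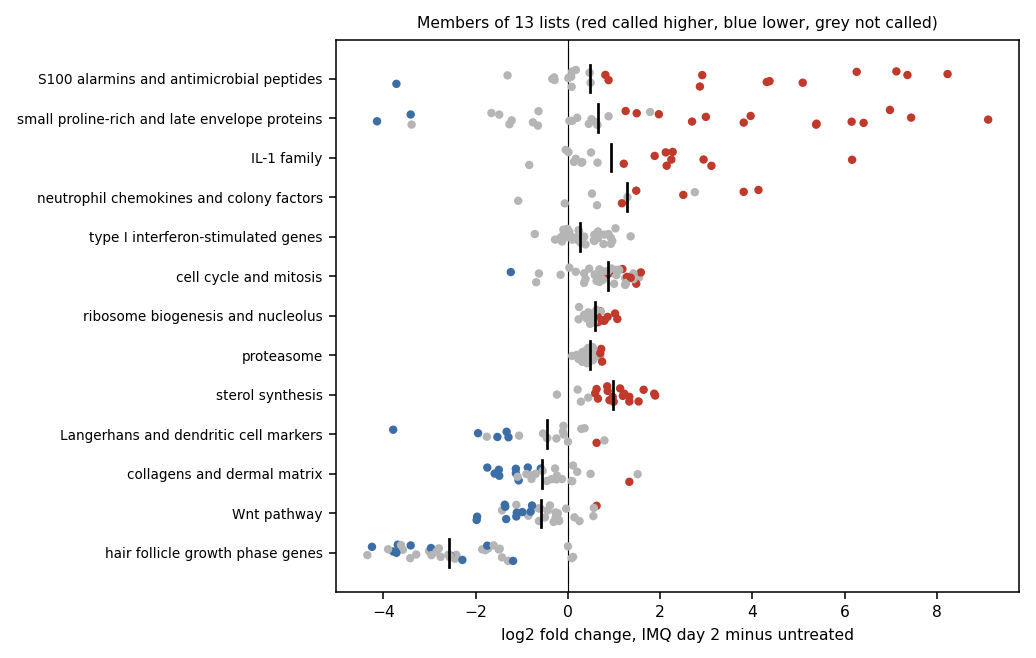
Log2 difference, IMQ day 2 minus untreated Ahr+/- skin, of each measured gene of 13 lists (1 row a list), coloured red when called higher, blue when called lower and grey otherwise, with a black bar at the list median. The 21 sterol genes lie between -0.24 and 1.89 with a median of 0.97, the 37 interferon-stimulated genes hold no called gene, and hair growth genes lie around a median of -2.58.

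Growth signals and growth itself were measured in separate lists. Of 13 EGF receptor ligands and receptors 5 were called higher and 1 lower (3 to 5 higher with 1 array left out). *Epgn* (epigen) went from 5.34, 7.50 and 6.63 to 11.06, 10.93 and 10.88 (difference 4.47, SE 0.43, adjusted p = 5.05e-05). *Hbegf* rose by 2.59 (SE 0.39, adjusted p = 0.00139) and *Ereg* (epiregulin) by 2.10 (SE 0.37, adjusted p = 0.00362), while *Btc* (betacellulin) fell by 1.66, from 9.34, 8.24 and 9.98 to 7.38, 7.67 and 7.54 (SE 0.32, adjusted p = 0.00719). Ligands of one receptor family thus differed in sign, with no overlap between groups. *Has3*, which makes hyaluronan, rose by 3.57 (adjusted p = 0.000132), and *Il13ra2*, the decoy receptor of IL-13, by 2.28 (adjusted p = 0.00123).

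Of 47 cell cycle genes 7 were called higher and 1 lower (median 0.86), and 43 lay above 0. This count turned on untreated replicate 2: without it 40 were called higher, and without any other single array of the 6 at most 2. Limma's array weights gave 37 and a fit to the 2 groups alone none. *Mcm3*, a subunit of the replicative helicase, read 7.89, 8.79 and 7.70 untreated and 9.33, 9.33 and 9.28 after IMQ (difference 1.18, SE 0.24, adjusted p = 0.00933). *Mki67*, the Ki-67 antigen of dividing cells, read 9.46, 11.66 and 9.69 untreated and 10.91, 11.04 and 10.91 after IMQ and was not called (adjusted p = 0.344), its untreated replicate 2 lying above every IMQ array. The one fall was *Ccnd2* (cyclin D2), from 11.40, 12.32 and 11.52 to 10.43, 10.56 and 10.55 (fell by 1.24, SE 0.21, adjusted p = 0.00348). All 24 genes of ribosome biogenesis lay above 0 (median 0.59) and 10 were called higher, 18 without untreated replicate 2 none without IMQ replicate 1 and 1 without IMQ replicate 2. All 28 proteasome genes lay above 0 as well (median 0.48), of which 3 (10.7%, against 5.22% of all genes) were called. The count was 12 without untreated replicate 2 and 1 without untreated replicate 3 or any single IMQ array.

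Genes of oxidative stress, amino acid supply and glycolysis were among the rises. *Gsta4*, a glutathione transferase that clears lipid peroxides, went from 7.29, 7.23 and 7.85 to 12.60, 11.85 and 11.33, a difference of 4.47 (SE 0.31, adjusted p = 3.69e-06). *Slc7a11*, the cystine importer, went from 3.90, 4.05 and 4.41 to 8.18, 7.97 and 7.25, a difference of 3.68 (SE 0.22, adjusted p = 1.51e-06). Both are targets of the antioxidant factor NRF2, whose list had 8 called rises and 2 falls among 22 genes (4 rises without IMQ replicate 1). *Akr1b8*, an aldo-keto reductase, rose by 2.37 (adjusted p = 2.62e-05). In serine and asparagine synthesis, *Asns* rose by 1.80 (adjusted p = 0.000125), *Psat1* by 1.63 (adjusted p = 0.000266) and *Phgdh* by 1.13 (adjusted p = 0.005). *Psat1* moved from 9.54 to 9.57 untreated to 10.99 to 11.38 after IMQ. Of 25 HIF-1 target and glycolysis genes 9 were called higher and none lower (median 0.55, 6 to 10 with 1 array left out). *Slc2a1*, the glucose transporter GLUT1, went from 10.35, 9.71 and 10.13 to 12.70, 11.86 and 11.94 (difference 2.10, SE 0.23, adjusted p = 0.000143), *Pgam1* rose by 1.43, the oxygen sensor *Egln3* by 1.39 and *Hif1a* itself by 1.08.

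Genes of lipid mediators were called in both directions. *Pla2g4e*, a cytosolic phospholipase A2, went from 6.46, 6.49 and 5.83 to 10.65, 10.27 and 10.24 (difference 4.13, SE 0.25, adjusted p = 1.5e-06). *Ptgs2* (COX-2), the inducible step of prostaglandin synthesis, went from 4.80, 4.65 and 5.69 to 8.73, 8.90 and 8.32 (difference 3.60, SE 0.30, adjusted p = 1.63e-05), and *Ptges*, which makes prostaglandin E2, rose by 1.38 (adjusted p = 0.000482). *Alox12e*, an epidermal lipoxygenase, went the other way, from 11.34, 10.26 and 10.35 to 7.21, 7.94 and 7.95, and fell by 2.95 (SE 0.35, adjusted p = 0.00034). The list of 27 held 5 called rises (18.5%) and 3 falls (11.1%), against 5.22% and 3.83% of all genes.

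AhR target genes were examined because the animals carried a single active *Ahr* allele. Of 16 genes of the receptor, its partners and targets 5 were called higher and none lower (median 0.11), and 1 to 5 with 1 array left out, the fewest without IMQ replicate 1. *Cyp1a1*, the target most used as a readout of AhR, read 7.48, 6.75 and 7.35 untreated and 8.47, 8.94 and 9.11 after IMQ. It rose by 1.64 (SE 0.38, adjusted p = 0.0176), with no overlap, and lost its call without IMQ replicate 2 or 3 (adjusted p = 0.0631 and 0.0651). *Tiparp* (0.78), *Nqo1* (0.93), *Nfe2l2* (0.76) and *Ido1* (0.72) rose by less and each lost its call without at least 2 arrays in turn. *Cyp1b1* (0.40) and the repressor *Ahrr* (0.67) were not called. The letters TNGCGTG that AhR binds stood before 1 of the 12 genes of this list that have a window, *Ahrr*. Counted by window, the letters stood in 4.10% of all windows and in 5.55% of those of measured genes. The shares were 5.3% for windows of genes called higher and 4.82% for those of genes called lower. *Ahr* was at 11.30, 10.11 and 11.12 untreated and 9.79, 10.26 and 10.27 after IMQ (difference -0.73, adjusted p = 0.133), and untreated replicate 2 overlapped the IMQ arrays.

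**Figure D4:**
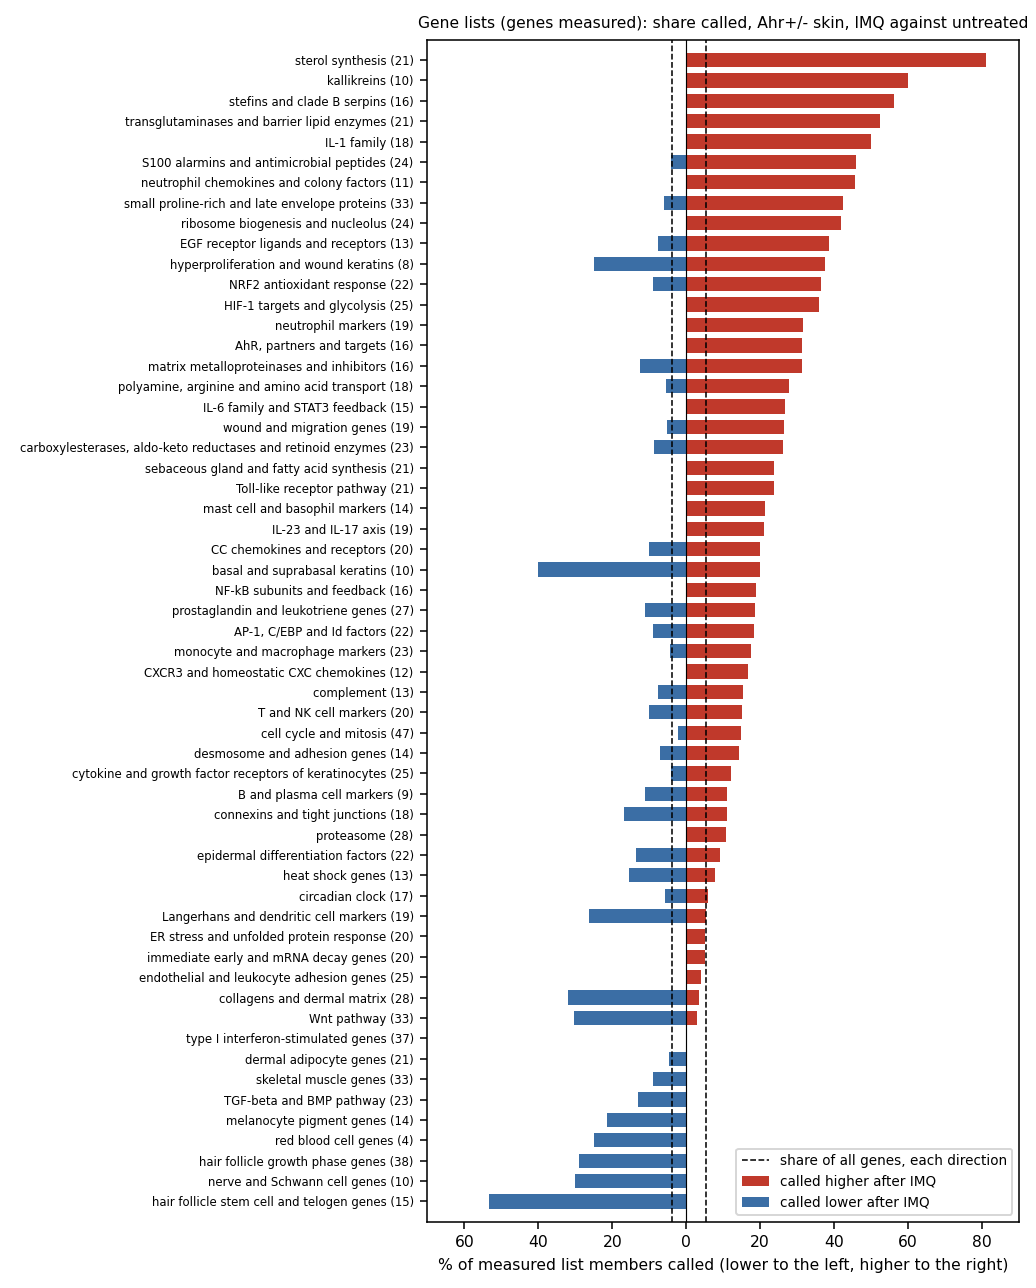
Share of the measured genes of each of 57 lists (number measured in brackets) called higher (red, to the right) or lower (blue, to the left) in IMQ against untreated Ahr+/- skin, with dashed lines at the shares over all genes, 5.22% and 3.83%. Sterol synthesis has the longest red bar (81.0%) and hair follicle stem cell genes the longest blue one (53.3%), and interferon-stimulated genes have neither.

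The falls were led by genes of the hair follicle, and their size rested on untreated replicate 2. Of 38 hair growth genes 11 were called lower and none higher (median -2.58), with 2 called lower without IMQ replicate 2 or 3 and 23 without untreated replicate 1. The median was -1.38 without untreated replicate 2. *Krt27*, a keratin of the inner root sheath, read 9.91, 13.97 and 10.69 untreated and 9.42, 6.51 and 5.88 after IMQ. It fell by 4.25 (SE 1.12, adjusted p = 0.0313), a call lost without untreated replicate 2 (adjusted p = 0.0572) and without untreated replicate 3 or IMQ replicate 2 or 3 (0.0531 to 0.114). Untreated replicate 2 was far above the rest, and IMQ replicate 1 lay just under the lowest untreated array. The 15 largest falls without overlap were *Pgr*, *Lce1m*, *Mgl2* and 12 genes of hair keratins, of the keratin-associated cluster or of hair shafts. Each of these 12 lost its call without IMQ replicate 2 and also without IMQ replicate 3. The adjusted p was then 0.0768 to 0.0837 in *Gm11559* and *Krtap4-16*, and 0.156 and 0.159 in *Krt33a*. Some, such as *Prr9* (0.0827 to 0.138), were lost without untreated replicate 2 as well.

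Genes of resting follicles and their stem cells did not share the excess on untreated replicate 2. Of 15 measured 8 were called lower and none higher (median -0.95, 3 to 8 with 1 array left out, the fewest without IMQ replicate 1), and all 15 differences were under 0. *Lhx2*, a transcription factor of hair stem cells, read 9.67, 9.70 and 8.86 untreated and 7.04, 8.04 and 7.73 after IMQ and fell by 1.80 (SE 0.29, adjusted p = 0.00202). *Bmp4*, which keeps those cells quiescent, fell by 1.07 (SE 0.17, adjusted p = 0.00247). Of 33 Wnt pathway genes 10 were called lower and 1 higher (median -0.59, 5 to 12 lower). The secreted inhibitors *Sfrp4* and *Sfrp2* fell by 1.98 (SE 0.33, adjusted p = 0.0028) and 1.97, the second lost without untreated replicate 3 or IMQ replicate 1 (adjusted p = 0.0529 and 0.0698), the co-agonist *Rspo3* by 1.37 (adjusted p = 0.000788), the receptor *Fzd2* by 1.36 (adjusted p = 0.00176) and the target *Apcdd1* by 1.12 (adjusted p = 0.00395). Inhibitors and activators of the pathway were thus both among the falls. Of 14 melanocyte genes 3 were called lower (1 to 6 with 1 array left out), of which *Dct* kept its call, from 9.52, 12.29 and 9.69 to 7.54, 7.97 and 7.92 (fell by 2.69, SE 0.55, adjusted p = 0.00924).

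Some dermal matrix genes were called lower. Of 28 collagens and matrix genes 9 were called lower and 1 higher (median -0.57, 5 to 10 lower). *Col5a1* read 11.12, 10.65 and 10.64 untreated and 8.98, 9.22 and 9.44 after IMQ and fell by 1.59 (SE 0.20, adjusted p = 0.000452), and *Col1a1*, the main collagen of dermis, went from 12.14, 12.05 and 11.15 to 10.23, 10.25 and 10.36 and fell by 1.5 (SE 0.27, adjusted p = 0.00484). In neither did the groups overlap, but the other probe set of *Col1a1* was not called. *Dcn* (0.08) and *Lum* (0.11), proteoglycans of the same fibroblasts, did not pass the test. *Lox*, which crosslinks collagen, rose by 1.33, a call lost without untreated replicate 3 or IMQ replicate 1 (adjusted p = 0.0683 and 0.0724). Among matrix proteases *Mmp3* went from 9.44, 8.21 and 8.11 to 12.07, 10.96 and 10.65 (difference 2.64, SE 0.37, adjusted p = 0.000955), and the inhibitors split, *Timp1* rising by 2.85 (SE 0.24, adjusted p = 1.63e-05) and *Timp3* falling, from 12.27, 11.15 and 11.83 to 9.72, 10.14 and 10.18 (fell by 1.74, SE 0.24, adjusted p = 0.000891). Of 21 adipocyte genes 1 (4.76%) was called lower and of 33 skeletal muscle genes 3 (9.09%), against 3.83% of all genes. Without untreated replicate 2, 16 of the muscle genes were called lower. The muscle list averaged 11.34, 10.60 and 11.62 untreated and 10.62, 10.92 and 10.81 after IMQ, and the part of tissue depth in the falls was not tested.

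Outside the lists, *Pgr*, the progesterone receptor, gave one of the largest falls. It read 9.40, 6.54 and 8.76 untreated and 3.76, 3.95 and 4.37 after IMQ and fell by 4.21 (SE 0.72, adjusted p = 0.00329), with untreated replicate 2 the lowest of its group and still above every IMQ array. None of its other 2 probe sets was called. *Greb1*, a hormone-induced gene, and *Oxtr*, the oxytocin receptor, both named after their values were seen, had differences of -2.53 (adjusted p = 0.00543) and -2.40 (adjusted p = 0.00176), while the oestrogen receptor *Esr1* was not called (difference -0.64, adjusted p = 0.343). Also named after their values were seen were 3 tight falls. *Adh6a*, an alcohol dehydrogenase, went from 7.91, 7.94 and 7.95 to 5.23, 5.39 and 5.58 (fell by 2.54), *Nectin3*, an adhesion protein, from 9.96, 9.61 and 9.59 to 6.85, 7.21 and 7.16 (fell by 2.64), and *Tesc*, a calcium-binding protein, from 9.37, 10.08 and 9.81 to 6.51, 6.87 and 7.17 (fell by 2.90).

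A few transcription factors of the epidermis were called, in both directions. Of 22 epidermal differentiation factors 2 (9.09%) were called higher and 3 (13.6%) lower, against 5.22% and 3.83% of all genes. *Grhl3*, needed for barrier formation and repair, went from 7.97, 8.24 and 8.23 to 9.88, 9.69 and 10.01 (difference 1.72, SE 0.22, adjusted p = 0.000487), and *Ovol1* rose by 1.41 (adjusted p = 0.00574). *Gata3* went from 10.13, 10.49 and 10.55 to 7.98, 8.98 and 8.95 (fell by 1.75, SE 0.27, adjusted p = 0.0016), the vitamin D receptor *Vdr* fell by 1.39 (adjusted p = 0.00876) and *Notch1* by 1.15 (adjusted p = 0.00178). Of 16 NF-κB subunits and feedback genes 3 (18.8%) were called higher, 2 to 4 with 1 array left out. The subunit *Rel* led, from 5.92, 6.10 and 6.02 to 7.28, 7.95 and 8.20 (difference 1.79, SE 0.23, adjusted p = 0.000482). Of 17 circadian clock genes 1 (5.88%) was called higher and 1 (5.88%) lower, close to the 5.22% and 3.83% of all genes. *Hlf* fell by 1.54 (SE 0.21, adjusted p = 0.000762), and the rise of *Clock* (0.71) was lost without 5 of the 6 arrays in turn and turned to -0.01 when all its probe sets were averaged.

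Whether *Ahr*-/- skin responded differently was tested as the difference between the genotypes' responses, over all genes. In 241 genes (1.32%) it was called, 98 of them with the higher response in *Ahr*-/- skin and 143 with the lower. Of the 1646 genes called in *Ahr*+/- skin, 56 were among them, 33 of the rises and 23 of the falls. The responses of *Krt6b*, *Sprr1b*, *S100a9* and *Il1f6* did not pass this test. With 1 array left out the count ran from 31 to 942. In 2 of the 3 treated *Ahr*-/- arrays the Gapdh 3′ minus 5′ log2 difference, which rises with RNA degradation, was 1.17 and 1.52, where the other 10 arrays had 0.14 to 0.53. With that difference as a covariate 12 genes were called. In *Ahr*+/- skin the covariate left 892 genes called higher and 597 lower.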

How the data were processed

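RNA of whole skin was hybridised to 12 Affymetrix mouse genome arrays, 3 a group. The log2 values used here were deposited by the authors, who normalised the scans together by RMA with the R package affy (no version stated). This method compresses signals near the floor and ceiling of an array. Of 45101 probe sets, 64 controls, 932 assigned to several genes and 9160 without a symbol were set aside. The other 34945 gave 18193 genes, 9010 of them with more than 1 set. Median signals per array ran from 7.38 to 7.56, and the number of arrays limits the precision.

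The 4 group means were fitted to all 12 arrays with limma 3.58.1 in R 4.3.3, which left 8 residual and 4.437 prior degrees of freedom. P-values were adjusted over all 18193 genes by Benjamini-Hochberg. The call thresholds were 0.05 for the adjusted p and 1.5 for the fold change. The study's rank product was rewritten in Python 3.11.15 as an alternative. Both were tested on simulated data. The other alternatives changed the probe set rule, the scaling, the variance model, the arrays fitted and the threshold, added a Gapdh covariate or a replicate block, or left out 1 array.

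The genes named were the 15 largest called rises and 15 largest called falls without overlap between groups, up to 6 called members of each of 57 lists (or the member of largest difference where none was called), Ahr, and the mediators that the study measured by PCR. The groups, lists and tests were chosen with earlier results of these data known. Same-numbered treated and untreated arrays deviated from their group means with correlations of -0.126, -0.1837 and 0.1859, so the numbers were not taken as pairs. Promoter sequences are the 250 bases before the RefSeq gene start in GRCm38.p6, searched on both strands.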

Additional observations from a re-analysis of the deposited data

Results flagged for a closer look

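Of the genes named, 15 had a response to IMQ that differed between Ahr-/- and Ahr+/- skin by limma's test of that difference. Given as the Ahr-/- response minus the Ahr+/- response on the log2 scale, Clec4d stood at 4.81, Ccl3 at 4.62, Clec4e at 4.43, Il1b at 4.17, Hdc at 4.02, Csf3r at 2.53 and Timp1 at 1.64, genes of myeloid cells and inflammation. In the other direction stood Krt77 at -4.15, Akr1c14 at -3.76, Krt10 at -2.85, Lce1m at -2.66, Adgre1 at -2.39, Lipk at -2.38, Ighm at -1.85 and Msmo1 at -1.39. The Gapdh 3′ minus 5′ difference was 1.17 and 1.52 on 2 of the 3 treated Ahr-/- arrays and 0.28 on the third. Its part in these differences was not tested gene by gene, and over all genes 12 differences were called with it as a covariate, against 241 without.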

How the results depend on the processing

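Limma called 949 genes higher and 697 lower after IMQ. With limma's array weights 1532 genes were higher, with a fit to the 2 groups alone 603 were higher and 356 lower, with rank product 142 and 82, at an adjusted p under 0.01 471 and 246, and over all probe sets 1624 and 1124. With 1 array left out, 565 to 1290 genes were higher and 317 to 1146 lower. The count of differing responses, 241, became 2096 with array weights, 27 at an adjusted p under 0.01, 12 with the Gapdh covariate and 31 to 942 with 1 array left out. Rank product was not defined for it. The replicate block gave 958 genes higher, 701 lower and 221 differing responses. Clock changed sign when its probe sets were averaged (-0.01, adjusted p = 0.988), and so did Krt10 without IMQ replicate 1 (0.07, adjusted p = 0.93; -1.0 to 0.07 with 1 array left out). The causes were not tested. With 3 arrays a group, and untreated replicate 2 and IMQ replicate 1 apart from the others, changes of moderate size turn on single arrays.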
